A study of Aedes aegypti with 19 samples.

Results

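EcR, USP, E75, HR3 and Kr-h1, 5 regulators of the response to ecdysteroids and juvenile hormone, were followed through the ovaries of Aedes aegypti females that had taken a blood meal or sugar only. They were picked by identifier from the 19381 genes of the count files, as AAEL019431 (EcR), AAEL000395 (USP), AAEL007397 (E75), AAEL009588 (HR3) and AAEL002390 (Kr-h1), of which the files list EcR, USP and E75 by symbol. Females from Poza Rica, Mexico, aged 4 to 7 days at the start, received either a meal of warmed sheep blood (BF) or a sugar meal (SF). After that no further blood was offered, and all females of both diets lived on 10% sucrose. Ovaries of about 25 females per time point were pooled on day 3, 10 or 20 post blood meal (PBM), after removal of any eggs. Females could lay, and most BF females had done so by day 10. The 6 groups held 3 libraries each, numbered 1, 2 and 4, except for day 3 BF, which also had a library 3 from a separate replicate. By the study's methods, replicates 1, 2 and 4 each supplied all 6 groups. A pool averages its females and all cell types of the ovary, so that more cells of a type and more RNA per cell cannot be told apart in these values.

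Ecdysteroids act through a receptor made of EcR and USP, nuclear receptors that bind DNA as a pair. The ligand of this receptor is 20-hydroxyecdysone, and its titre in female mosquitoes rises during egg development. E75 and HR3 are nuclear receptors that ecdysteroids switch on early in the cascade, and in Drosophila E75 protein binds HR3 and holds back its activity. Kr-h1 is a zinc-finger transcription factor induced by juvenile hormone, the hormone that readies the ovary and the fat body before the blood meal.

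The 5 genes are long. On the AaegL5.0 assembly, as the files give it, EcR spanned chromosome 3 from 327530790 to 328285750 on the plus strand, 754961 bp, of which its 12 exons cover 8979 bp. USP lay on the minus strand of the same chromosome from 97239121 to 97369687, and E75 on its plus strand from 407728613 to 407968714. HR3 occupied chromosome 2 from 357186388 to 357685749 on the minus strand with 11 annotated transcripts, and Kr-h1 the plus strand of chromosome 2 from 303297369 to 303375216. The gene lengths ran from 77848 bp (Kr-h1) up to EcR, which was longer than 99.6% of the 14677 protein-coding genes, whose median was 11044 bp. Exons made up between 1.19% (EcR) and 8.65% (Kr-h1) of these lengths, so that nearly all the sequence in which a read could fall was intron. RNA was depleted of ribosomal RNA without poly(A) selection, so that unspliced RNA could be sequenced too, and the files count gene reads as exon reads plus intron reads.

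Depth was 34651820 to 56274885 gene reads per library. HR3 was the thinnest of the 5, with 355 to 881 gene reads in a library, and EcR the deepest, with 13059 to 18302. Between 96.01% of the reads of HR3 and 99.9% of those of Kr-h1, as means over the libraries, matched a single place in the genome. The share of all gene reads lying in introns differed between the groups. On day 3 it was 4.84% ± 0.75 in SF (SD, n = 3) but 11.9% ± 1.92 in BF (SD, n = 4), while the other 4 groups had means of 4.21% to 5.57%. Library 3 of day 3 BF had the lowest share of its group, 9.11%, and stood apart from its mates over all genes, at chi-square values, divided by their degrees of freedom, of 45.0 to 76.9 against 20.9 to 32.9 in the other pairs of that group. This difference runs through every count of gene reads below, and exon and intron reads are therefore given apart. As a check of the tissue, 10 genes (osk, inx4, mael, 15a-1 and 6 PIWI genes, the ovary list) were picked after the symbols in the files had been seen. Their summed level was 4625 to 5986 CPM over all 19 libraries (CPM, gene reads per 1000000 gene reads of the library after TMM scaling). In this list mael and the PIWI genes stand for the piRNA pathway rather than for a tissue, and their part of the sum was not given apart, which limits the check. The 7 PPO genes, markers of haemocytes, summed to 5.45 to 10.0. None of these genes was at 0 throughout a group. The fixed lists for fat body and muscle matched no symbol in the files, so that RNA of these tissues was not checked. The day 3 BF range of the ovary list, 4625 to 5378, lay below the 5507 to 5986 of day 3 SF, and the part of this in the results was not tested.

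Per length of exon, USP was the most abundant of the 5 regulators and HR3 the least. The deposited RPKM, which relates exon reads to exon length and to the mapped pairs of the library, averaged 45.6 ± 3.71 (SD, n = 19) for USP, 25.1 ± 2.63 for EcR, 14.2 ± 2.62 for E75, 11.3 ± 2.45 for Kr-h1 and 0.332 ± 0.098 for HR3. The ranges of USP (37.3 to 50.9), of EcR (19.3 to 29.0) and of HR3 (0.207 to 0.591) overlapped no other, whereas those of E75 (10.5 to 18.9853) and Kr-h1 (8.20 to 16.4) overlapped. The RNAs of the receptor partners were thus unequal in RPKM, and protein was not measured. The order rests on exon length, since EcR had more exon reads than USP, with means of 239 and 171 CPM over all libraries. The ratio of EcR to USP in RPKM was 0.578 ± 0.039 (SD, n = 3) in the SF ovaries of day 3 and 0.524 ± 0.011 (SD, n = 4) in those of BF. These ranges overlapped, and the exact permutation test gave p = 0.114, two-sided, where 4 libraries against 3 can go as low as 0.0571. On day 20 the ratio was 0.570 ± 0.012 in BF and 0.503 ± 0.028 in SF, without overlap, at the smallest exact permutation p that 3 libraries against 3 can give, 0.10.

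For the comparison of BF with SF on each day, gene reads were fitted in edgeR over all 6 groups, with p-values adjusted over the 13904 genes tested (FDR p-value, called under 0.05). All 5 regulators passed the filter on low counts in gene, exon and intron reads. On day 3, 3 of 5 were higher in BF, namely HR3, Kr-h1 and E75, and 0 were lower. Of all genes tested 64.9% were called on that day, 32.3% as higher, and 32.6% as lower, so that 3 of 5 is near the share over the whole table. The median log2 fold change of the 5 was 0.30, beside 0.018 over all genes. On day 10 and on day 20, 0 of 5 were called, where 19.3% and 21.4% of all genes were. At an unadjusted p under 0.05 the counts were 0 on day 10 and 2 on day 20, and DESeq2 called 0 and 1. The day 3 calls of HR3, Kr-h1 and E75 held without each of the 7 libraries of that day in turn, with FDR p-values of at most 0.0276.

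**Figure D1:**
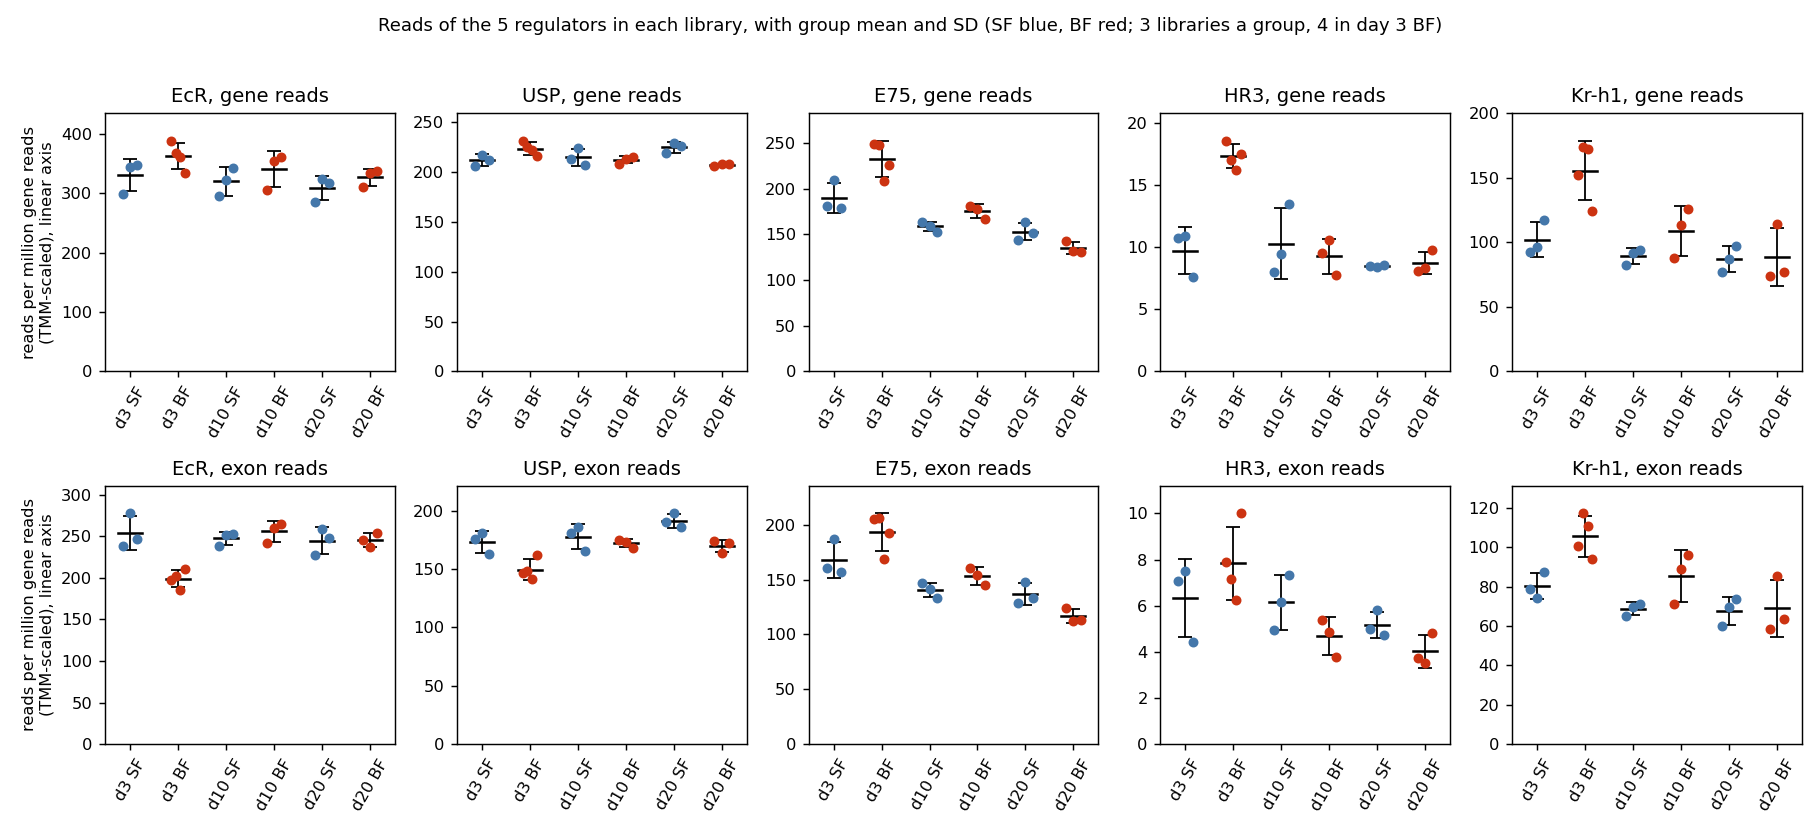
Gene reads (top) and exon reads (bottom) of the 5 regulators in each library, in CPM, on linear axes from 0, with SF in blue, BF in red and the group mean with its SD in black. HR3 gene reads in day 3 BF (16.3 to 18.6) lay above every other library, whereas its exon reads on day 3 overlapped between the diets and EcR exon reads in day 3 BF (185 to 211) lay below all other libraries.

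HR3 had the largest difference. Its gene reads on day 3 were 10.8, 10.9 and 7.58 CPM in SF libraries 1, 2 and 4, and 18.6, 17.1, 17.6 and 16.3 in BF libraries 1, 2, 3 and 4. The groups did not overlap, and the log2 fold change was 0.83 ± 0.16 (SE, edgeR FDR p-value 2.2e-04), a 1.78-fold higher level. No other group reached the level of day 3 BF. On day 10 the SF libraries had 7.99, 9.46 and 13.5 and the BF libraries 9.51, 10.6 and 7.80, and on day 20 they had 8.54, 8.43 and 8.59 in SF and 8.13, 8.35 and 9.78 in BF. The diets overlapped on both of these days (log2 fold changes -0.15 ± 0.17 and 0.039 ± 0.17, SE). The effect of the blood meal on day 3 exceeded that on day 10 by 0.98 ± 0.24 (SE, edgeR FDR p-value 0.00354) and that on day 20 by 0.80 ± 0.24 (FDR p-value 0.0128). In the first, 36.8% of all genes were called and 17.3% in the same direction, and in the second 38.8% and 18.9%. These contrasts share the day 3 libraries. Between days 10 and 20 the effect differed for 0 of 5 members and 0% of genes in edgeR and for 0 members in DESeq2, with 1 member and 1074 genes at an unadjusted p under 0.05. Without library 4 of day 3 SF, the lowest of its group, the difference from day 20 for HR3 gave 0.60 and an FDR p-value of 0.052.

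Exon reads of HR3 did not separate the diets. On the same CPM scale they were 7.06, 7.53 and 4.42 in libraries 1, 2 and 4 of day 3 SF, and 7.91, 7.18, 10.0 and 6.23 in BF libraries 1 to 4. The groups overlapped, with library 3 the highest of BF and library 4 the lowest of each diet. Scaled to the exon reads of each library, the log2 fold change was 0.51 ± 0.20 (SE, edgeR FDR p-value 0.043). It was 0.36 without BF library 3 (FDR p-value 0.159) and 0.31 without SF library 4 (0.234). The call was also lost without library 1 of either diet (0.0578 and 0.0882) and with the replicate number as a block (0.129). Intron reads separated the diets, with 3.70, 3.37 and 3.16 in SF and 10.7, 9.91, 7.55 and 10.0 in BF, so that the larger part of the rise in gene reads lay in introns.

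Kr-h1 came next. Its gene reads on day 3 were 92.3, 96.2 and 118 CPM in SF libraries 1, 2 and 4, and 152, 174, 124 and 172 in BF libraries 1 to 4. All BF libraries were higher than all SF libraries, the nearest being BF library 3 and SF library 4, and the log2 fold change was 0.61 ± 0.16 (SE, edgeR FDR p-value 0.00344). Exon reads did not overlap either, with 79.0, 74.4 and 87.4 in SF and 101, 117, 94.0 and 111 in BF, and gave 0.60 ± 0.13 (SE, FDR p-value 0.00114) on exon scaling. With each kind of read on its own scaling, Kr-h1 had the smallest gap of the 5 members between gene and exon estimates. This depended on the scale. With exon reads set against the gene reads of the library, E75 had the smallest gap. Its exon estimate there was 0.20 beside 0.30 in gene reads, and that of Kr-h1 was 0.40 beside 0.61. On day 10 the gene reads were 82.1, 91.9 and 94.0 in SF and 87.6, 113 and 126 in BF, which overlapped (log2 fold change 0.29 ± 0.17, SE; FDR p-value 0.253). On day 20 they were 77.3, 87.3 and 96.8 in SF and 73.9, 114 and 77.3 in BF (0.022 ± 0.17, SE; FDR p-value 0.946), with BF library 2 above all SF libraries and the other two at the level of the lowest of them or below. The differences of the day 3 effect from those of days 10 and 20 were not called (edgeR FDR p-values 0.302 and 0.0582).

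E75 had 181, 209 and 179 CPM on day 3 in SF libraries 1, 2 and 4 and 249, 248, 226 and 208 in BF libraries 1 to 4. SF library 2 lay just above BF library 4, the only overlap, and the log2 fold change was 0.30 ± 0.07 (SE, edgeR FDR p-value 0.00142). Exon reads, with 161, 187 and 157 in SF and 205, 206, 193 and 169 in BF, gave 0.40 ± 0.07 (SE, FDR p-value 1.56e-04) on exon scaling. On the later days the groups did not overlap, and in opposite directions. Day 10 SF had 164, 159 and 153 and day 10 BF 181, 178 and 167, whereas day 20 SF had 144, 164 and 152 and day 20 BF 143, 132 and 131. Neither passed the test (0.15 ± 0.08, FDR p-value 0.185, and -0.18 ± 0.08, FDR p-value 0.101, SE, edgeR). The day 3 effect exceeded that of day 20 by 0.47 ± 0.10 (SE, FDR p-value 0.00151), and was not told apart from that of day 10 (0.15 ± 0.10, FDR p-value 0.278).

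EcR and USP, which form the receptor, were not called in gene reads on any day with TMM scaling and no replicate block. On day 3 EcR had 299, 345 and 348 CPM in SF libraries 1, 2 and 4 and 388, 368, 334 and 360.3 in BF libraries 1 to 4. The groups overlapped (log2 fold change 0.13 ± 0.08, SE; edgeR FDR p-value 0.135), although on each of the 3 days EcR was higher in the BF library than in the SF library of the same number in 3 of 3 cases. With the replicate number as a block, the day 3 difference of EcR was called (0.18, FDR p-value 0.0179), and that of USP was not (0.095, FDR p-value 0.0692). Without the block EcR was not called on day 10 (0.088 ± 0.081, FDR p-value 0.476) or day 20 (0.081 ± 0.081, FDR p-value 0.505), and its groups overlapped on both days. USP had 206, 217 and 213 in day 3 SF and 232, 226, 216 and 222 in day 3 BF (0.077 ± 0.043, SE; FDR p-value 0.127). On day 10 the ranges of USP were 207 to 224 in SF and 209 to 216 in BF (-0.018 ± 0.046, FDR p-value 0.824). On day 20 the BF libraries, 206 to 208, lay below the SF libraries, 219 to 229.8 (-0.12 ± 0.046, FDR p-value 0.0806). The effect on USP on day 3 exceeded that on day 20 by 0.19 ± 0.06 (SE, edgeR FDR p-value 0.0216), a call lost on leaving out any single library of these days except BF libraries 3 and 4 of day 3, with FDR p-values up to 0.147. It was also lost without the low-count filter (0.0839) and on unique gene reads (0.0602). Scaling by upper-quartile factors moved the median of all genes by 0.10 and brought EcR (0.23) and USP (0.18) past the threshold on day 3. With these factors 5 of 5 were called, beside 62.6% of all genes, and 57.4% of the calls over all genes were higher. Library size alone called USP on day 3 too (0.12, FDR p-value 0.0168).

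In exon reads EcR went the other way. On the gene-read CPM scale the day 3 values were 239, 278 and 247 in SF libraries 1, 2 and 4 and 198, 202, 211 and 185 in BF libraries 1 to 4, without overlap. Scaled to exon reads, the log2 fold change was -0.15 ± 0.06 (SE, edgeR FDR p-value 0.0373), and the call was lost without library 2 or 4 of either diet, at FDR p-values of 0.0518 to 0.1253. Exon reads of USP were 176, 181 and 162 in SF and 147, 148, 162 and 141 in BF, where BF library 3 lay just below SF library 4, and scaled to exon reads the difference was -0.014 ± 0.048 (SE, FDR p-value 0.823). In exon reads 4 of 5 regulators were thus called on day 3, 3 higher and 1 lower, beside 55.8% of the 13297 genes tested (28.5% higher and 27.2% lower). On days 10 and 20, 0 of 5 were called, beside 16.9% and 19% of genes, with 1 and 2 members at an unadjusted p under 0.05 and 0 called by DESeq2.

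The scale decides the sign of the intron difference in 4 of the 5 genes and the call for USP and HR3 in exons. The scaling above sets each kind of read against its own total, and a second fit, chosen after the data had been seen, set exon and intron reads against the gene reads of the library. This moved the median of all genes on day 3 by -0.20 in exon reads and by 1.31 in intron reads. On it EcR exon reads fell by 0.35 ± 0.06 and USP exon reads by 0.21 ± 0.06 on the log2 scale (SE, edgeR FDR p-values 7.47e-05 and 0.00326), while E75 and Kr-h1 still rose, by 0.20 ± 0.08 (0.0329) and 0.40 ± 0.12 (0.0104). HR3 exon reads were not called on this scale (0.31 ± 0.21, FDR p-value 0.216). The count was 2 higher and 2 lower of 5, beside 61.6% of all genes called, 21.8% as higher and 39.8% as lower. The median of all genes on this scale was -0.17, so that USP lay close to it and EcR below it.

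**Figure D2:**
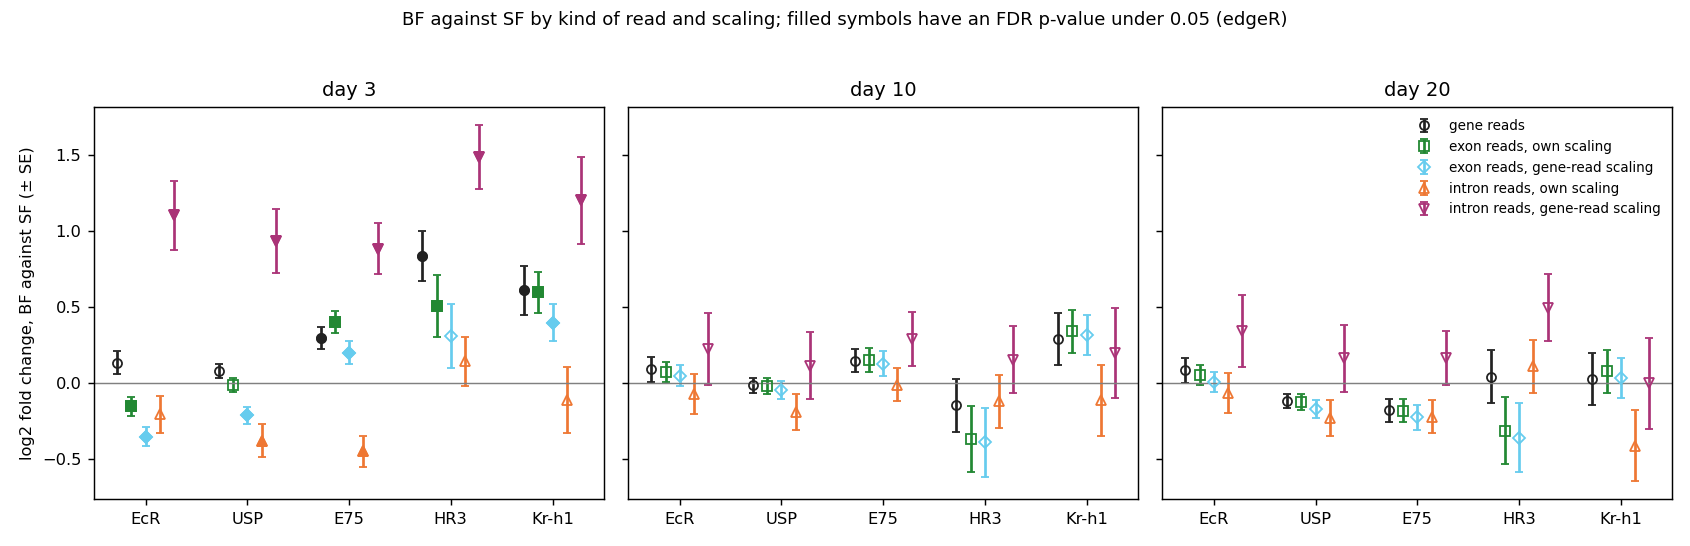
Log2 fold change of BF against SF (vertical axis, with its SE) for the 5 regulators on days 3, 10 and 20, by kind of read and scaling, with filled symbols for an FDR p-value under 0.05 in edgeR. On day 3 intron reads rose for all 5 on gene-read scaling (0.88 to 1.48) and lay between -0.45 and 0.14 on their own scaling, and no symbol is filled on days 10 and 20.

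Intron reads of all 5 regulators were higher in day 3 BF on gene-read scaling, as were those of most genes. The log2 fold changes were 1.48 ± 0.21 for HR3, 1.20 ± 0.29 for Kr-h1, 1.10 ± 0.23 for EcR, 0.93 ± 0.21 for USP and 0.88 ± 0.17 for E75 (SE, edgeR, FDR p-values 2.12e-07 to 4.40e-04). Of the 9498 genes tested 85.7% were called on this scale and 83.9% rose, with a median of 1.30, so that 5 of 5 is near the background and only HR3 was above the median. Against the other intron reads of the library, 2 of 5 were called, and both were lower: E75 by -0.45 ± 0.10 (FDR p-value 8.76e-04) and USP by -0.38 ± 0.11 (0.00742), beside 20.5% of genes called lower and 37.2% in either direction. HR3 (0.14 ± 0.16), Kr-h1 (-0.11 ± 0.22) and EcR (-0.21 ± 0.12) were not called there (FDR p-values 0.53, 0.72 and 0.198). The intron reads of E75 and USP had thus risen less than those of the median gene. The call for USP was lost without library 4 of day 3 SF (FDR p-value 0.0552). On days 10 and 20, 0 of 5 were called in intron reads, beside 0.884% and 1.41% of genes, and 0 passed an unadjusted p of 0.05 or were called by DESeq2.

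As a share of the gene's own reads, introns took more in day 3 BF for 4 of the 5 without overlap between the diets. How many of all genes separate in this way was not counted. Intron reads of 83.9% of genes were called higher on gene-read scaling, so that 4 of 5 is not read as particular to the regulators. EcR had 20.2%, 19.4% and 29.0% in SF libraries 1, 2 and 4 and 49.1%, 45.0%, 36.8% and 48.5% in BF libraries 1 to 4. HR3 had 34.4%, 30.9% and 41.7% in SF and 57.5%, 58.0%, 43.0% and 61.7% in BF. In both, BF library 3 was the lowest of BF and SF library 4 the highest of SF, which is also their order in the share over all genes. The means for USP were 18.4% ± 4.72 in SF and 33.2% ± 5.47 in BF, and for E75 11.4% ± 0.90 and 17.1% ± 1.74 (SD, n = 3 and 4). Kr-h1 had 14.4%, 22.6% and 25.7% in SF libraries 1, 2 and 4 and 33.8%, 32.5%, 24.4% and 35.8% in BF libraries 1 to 4. Its only overlap was BF library 3 below SF library 4, and BF was higher than SF at each of the numbers 1, 2 and 4. The exact permutation test gave p = 0.0571, two-sided, for each of the 4 that did not overlap and for all genes together, and p = 0.114 for Kr-h1.

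Divided by the share over all genes of the same library, the intron share of each regulator was lower in day 3 BF than in day 3 SF, again without overlap. The share of all genes for which this holds was not counted either. The quotient fell from 7.36 ± 0.31 to 4.64 ± 0.19 for HR3, from 2.38 ± 0.18 to 1.45 ± 0.12 for E75, and from 4.69 ± 0.34 to 3.79 ± 0.17 for EcR (SD, n = 3 and 4, exact permutation p = 0.0571, two-sided, each). Relative to SF, the share over all genes thus rose by more than those of the 5 members. In percentage points, however, EcR (21.96), HR3 (19.4) and USP (14.8) rose by more than all genes together (7.05). A share cannot exceed the whole, so a gene with a high share in SF has less room to rise in proportion. The lower quotient therefore does not show that its intron reads lagged. HR3 had the highest share in SF, and its intron reads rose by 1.48 on gene-read scaling, beside a median of 1.30. On day 20, E75 had 9.65% to 11.8% in SF and 13.2% to 14.8% in BF, and HR3 31.3% to 44.9% and 50.5% to 58.1%, both without overlap at the smallest exact permutation p of 0.10. The share over all genes was also higher in BF on that day, 5.57% ± 0.57 against 4.21% ± 0.27 (SD, n = 3).

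**Figure D3:**
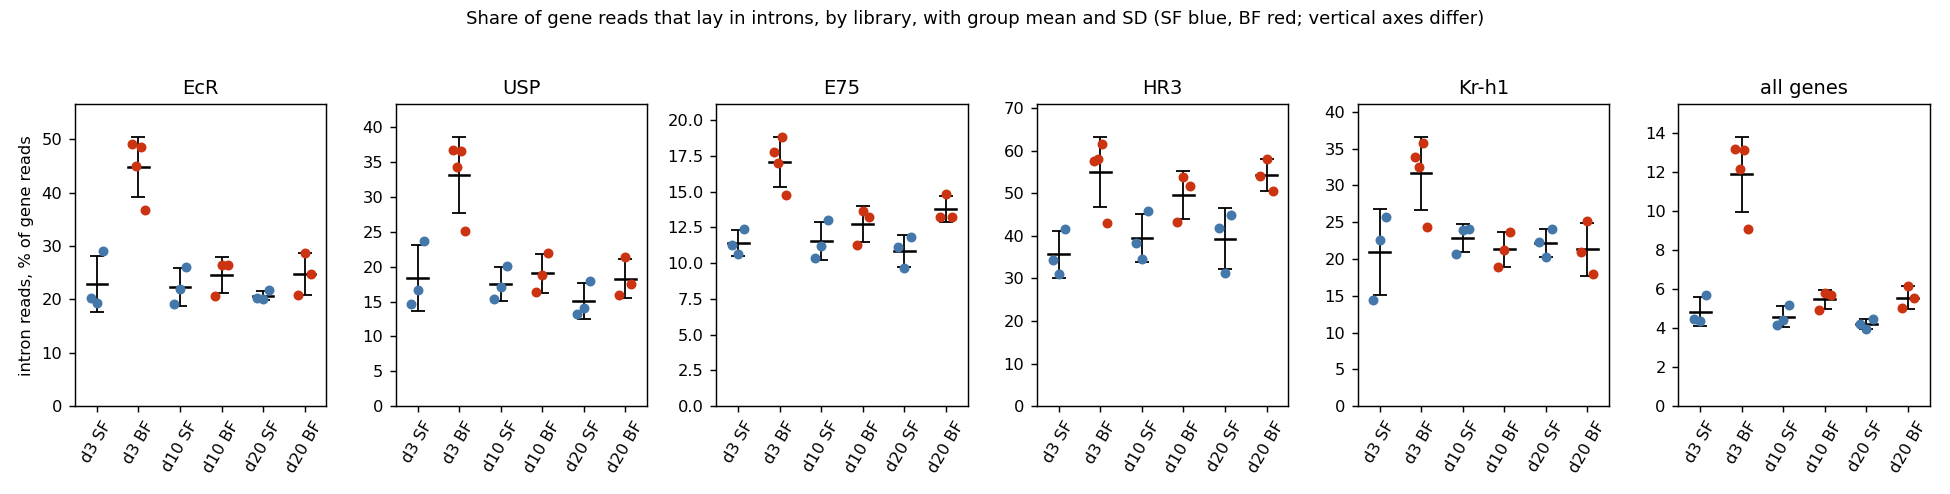
Intron reads as a percentage of the gene reads of each regulator, and of all genes together in the last panel, by library (SF blue, BF red), with the group mean and SD in black and vertical axes that differ. Day 3 BF stands highest in EcR (36.8% to 49.1%), USP and E75, as in all genes (9.11% to 13.2%), while HR3 was nearly as high in day 20 BF (50.5% to 58.1%).

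Intron reads of EcR need a caution. The gene AAEL010716 lies wholly inside the span of EcR on the opposite strand and had 2544 to 4406 gene reads of its own in a library, beside 2745 to 8980 intron reads of EcR. The library kit keeps the strand, but the sources used here do not say whether the counting did, so that reads of these genes cannot be told apart with certainty. EcR also holds AAEL022697 and the lncRNA AAEL027425, with at most 6 reads each, USP holds AAEL027053 with at most 21, and HR3 holds the miRNA precursor AAEL019319 with at most 1. E75 and Kr-h1 overlap no other annotated gene. Exon reads spanning a junction made up 6.87% ± 0.61 of those of E75 and 9.91% ± 0.62 of those of Kr-h1 (SD, n = 19), the lowest shares among the 5, against 45.6% ± 1.73 for USP. The junction share of exon reads was lower in day 3 BF than in SF without overlap in EcR alone, 21.9% ± 0.92 against 23.997% ± 0.55 (exact permutation p = 0.0571, two-sided).

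Between days, the fall after day 3 in BF ovaries was the main change. These comparisons share the day 3 BF libraries with the one between diets. From day 3 to day 10, 3 of 5 regulators fell and 0 rose, beside 31.2% of genes lower and 61% called in either direction. HR3 changed by -0.90 ± 0.16, Kr-h1 by -0.51 ± 0.16 and E75 by -0.41 ± 0.07 on the log2 scale (SE, edgeR FDR p-values 1.20e-04, 0.0111 and 8.20e-05). HR3 and E75 kept their calls without any single library. The call for Kr-h1 was lost without library 1 of day 10 BF, the lowest of its group (FDR p-value 0.101). E75 fell again from day 10 to day 20, by 0.38 ± 0.08 (SE, FDR p-value 0.00965), where 6.87% of genes were called and 2.35% as lower, and this call was lost without library 2 of day 10 BF (0.0578) and with only the groups compared (0.0593).

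In SF ovaries, 0 of 5 were called between days 3 and 10, beside 0.0719% of genes, and DESeq2 called 1 of 5. In edgeR 1 member, E75, had an unadjusted p under 0.05 (-0.26 ± 0.08, SE; FDR p-value 0.146). Its day 10 libraries, 153 to 164 CPM, lay below those of day 3, 179 to 209, without overlap. From day 3 to day 20, 1 of 5 was called, beside 17.6% of genes, with 7.03% lower. E75 fell by 0.31 ± 0.08 (SE, edgeR FDR p-value 0.0106), and the FDR p-value was 0.0502 without library 2 of day 3 or without library 1 of day 20. E75 thus fell with time under both diets, and its 6 group means ordered from day 3 BF (233 CPM) through day 3 SF (189.8), day 10 BF (176), day 10 SF (159) and day 20 SF (153) to day 20 BF (135). Only day 10 BF and day 10 SF, and day 20 SF and day 20 BF, did not overlap among the neighbours in this order. For HR3 only day 3 BF stood clear of its neighbour, with 17.4 ± 0.98 against 10.3 ± 2.85 in day 10 SF (SD, n = 4 and 3). In EcR, USP and Kr-h1 every group overlapped the next. The highest group mean exceeded the lowest 2.04-fold in HR3, 1.79-fold in Kr-h1, 1.72-fold in E75, 1.17-fold in EcR and 1.08-fold in USP.

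The wider pathway was read through a list of 26 receptors, response factors and enzymes of ecdysteroid and juvenile hormone metabolism, of which 9 have a symbol in the files. All 9 were called on day 3 in gene reads, 4 higher and 5 lower, beside 64.9% of all genes. Their median log2 fold change was -0.40, beside 0.018 over all genes. The enzymes stood at both ends. CYP315A1, which catalyses a late step of ecdysteroid synthesis, had 2.93 to 3.57 CPM in day 3 SF and 11.3 to 13.8 in day 3 BF, a log2 fold change of 1.96 ± 0.14 (SE, edgeR FDR p-value 2.15e-09). CYP18A1, which inactivates ecdysteroids in Drosophila, rose from 4.62 to 7.91 in SF libraries to 17.7 to 20.0 in BF libraries (1.62 ± 0.27, FDR p-value 4.84e-05). CYP307A1, which acts early in the synthesis, fell from 18.2 to 30.3 in SF to 8.01 to 11.2 in BF (-1.43 ± 0.24, FDR p-value 7.01e-05). CYP314A1, which converts ecdysone to 20-hydroxyecdysone, fell from 3.22 to 5.41 in SF to 2.11 to 2.84 in BF (-0.88 ± 0.22, FDR p-value 0.00185). The enzymes of one pathway thus moved in opposite directions on this day.

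Among the nuclear receptors of the list, HR4, which ecdysone induces in Drosophila, rose by 0.83 ± 0.09 (SE, edgeR FDR p-value 1.93e-07), with 43.9 to 45.3 CPM in SF and 73.8 to 83.0 in BF. E78, a receptor related to E75, was lower in BF, with 50.5 to 63.0 against 73.4 to 84.2 in SF (-0.46 ± 0.10, FDR p-value 6.03e-04). SVP, a partner of USP in mosquitoes that was singled out after its values were seen, had a log2 fold change of 0.63 ± 0.13 in gene reads (FDR p-value 4.39e-04) and of -0.17 ± 0.24 in exon reads (FDR p-value 0.575), so that its rise did not appear in exons. HR96 and Hnf4 were lower too, as the plot of the pathway genes shows. In exon reads on day 3 the list counted 3 higher and 5 lower of 9, beside 28.5% higher and 27.2% lower over all genes.

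Only CYP315A1 was called on day 10, with 2.24 to 2.61 CPM in SF and 5.88 to 6.05 in BF (1.26 ± 0.14, SE; edgeR FDR p-value 1.18e-04), beside 19.3% of all genes. On day 20, 1 of 9 rose and 1 fell, beside 21.4% of all genes called, so that the count is near the share over the whole table. CYP315A1 had 2.18 to 2.40 in SF and 4.66 to 6.15 in BF (1.21 ± 0.14, FDR p-value 1.21e-04), and HR96 was lower by -0.22 ± 0.07 (FDR p-value 0.0262), a call lost without 5 of the 6 libraries of that day in turn, at FDR p-values of 0.0566 to 0.203, BF library 4 being the exception. HR96 was also not called with upper-quartile factors (-0.14, FDR p-value 0.129), with library size alone (-0.14, FDR p-value 0.115) or with only the groups compared (FDR p-value 0.0782). None of the 5 regulators kept a called difference to these days, while CYP315A1 did. The effect on CYP315A1 was still larger on day 3 than on day 10, by 0.69 ± 0.19 (FDR p-value 0.00836). The juvenile hormone side of the list held no symbol beyond JAHMT, an enzyme of juvenile hormone synthesis added after the symbols had been seen, with 1.60 to 2.70 CPM in day 3 SF and 2.04 to 3.13 in day 3 BF (0.36 ± 0.25, FDR p-value 0.221).

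**Figure D4:**
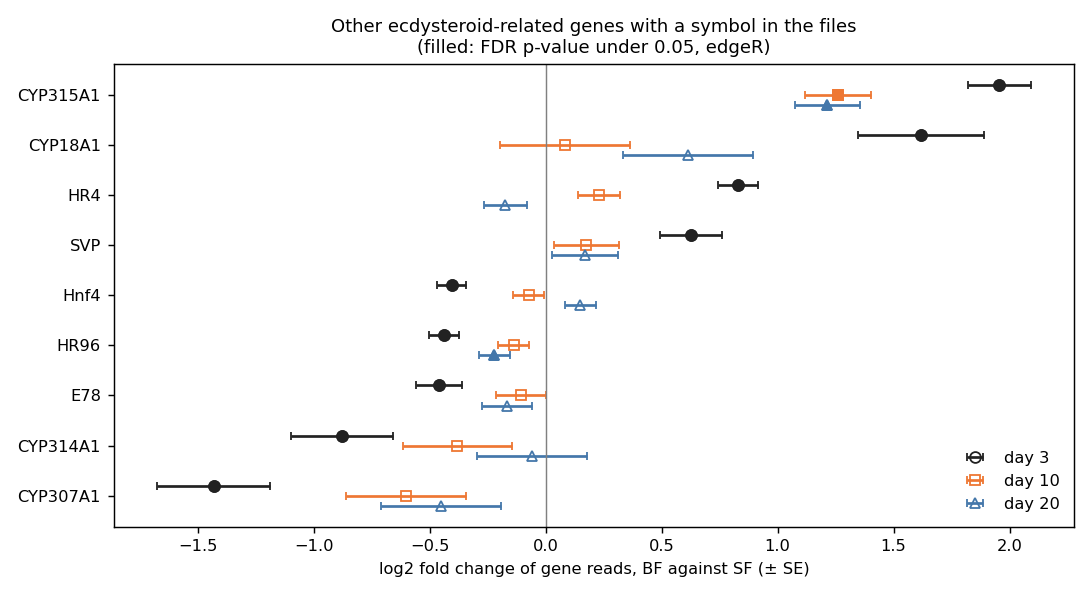
Log2 fold change of gene reads of BF against SF (horizontal axis, with its SE) for the 9 listed pathway genes that have a symbol, on days 3, 10 and 20, with filled symbols for an FDR p-value under 0.05 in edgeR. All 9 are filled on day 3, from -1.43 (CYP307A1) to 1.96 (CYP315A1), and CYP315A1 is filled on each day.

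The genes whose log2 level over the 19 libraries most resembled that of a regulator are given as a description, since these libraries share the difference between day 3 BF and the rest. Closest to E75 was AAEL019733 (Pearson r = 0.95), to Kr-h1 the gene with the symbol PDP1 (0.95), to HR3 AAEL019696 (0.93), to EcR AAEL019863 (0.89) and to USP AAEL019480 (0.85). The next in order were AAEL010419 and AAEL002306 for E75, AAEL026260 and AAEL004673 for Kr-h1, AAEL025167 and AAEL021538 for HR3, AAEL019779 and AAEL008916 for EcR, and ORP8 and AAEL026878 for USP. Among the regulators themselves the largest r was 0.80, between EcR and Kr-h1, and that between the receptor partners EcR and USP was 0.35.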

How the data were processed

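Total ovary RNA was DNase-treated, depleted of ribosomal RNA and sequenced from a stranded library kit. The authors mapped trimmed read pairs to AaegL5.0 in CLC genomics workbench. The deposited counts are whole numbers of pairs per gene, exon, intron and junction, not normalized, and the RPKM values beside them, also deposited, relate exon reads to exon length and mapped pairs. The annotation release and strand setting of the counting: not given in the sources used here.

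Tests used edgeR 4.0.16 under R 4.3.3 (filterByExpr, minimum count 10, minimum total count 15; TMM; robust quasi-likelihood fit over 6 groups, 13 residual degrees of freedom), separately for gene, exon and intron reads. CPM refers to gene reads after TMM scaling. The SE is the log2 fold change divided by the root of the F statistic. The threshold for a call was an FDR of 0.05. Shares were compared by exact permutation. Alternatives were DESeq2 1.42.0, RLE and upper-quartile factors, no low-count filter, only the groups compared, a replicate block, unique gene reads, an FDR of 0.01 and leaving out each library. Library size alone and gene-read scaling were added after seeing the data. Scripts were tested on simulated data. All 21 pairs of replicates differed beyond sampling noise (chi-square over its degrees of freedom, 16.3 or more), so none was counted as a duplicate. The study calls the replicates biological.

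The 5 genes and the lists were chosen with earlier results of these data known. Named genes are the 5 members, the called pathway genes (the 3 largest rises and falls per day with values), and for each member the 3 tested genes of highest Pearson r over log2 CPM (prior count 2). Fixed lists for ovary, fat body and muscle matched no symbol. Permutation tests used scipy 1.17.1, and plots matplotlib 3.10.9, under Python 3.11.15.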

Additional observations from a re-analysis of the deposited data

Results flagged for a closer look

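For 4 results, the effect of the blood meal on day 3 differed from that on a later day by the interaction test of edgeR, on gene reads. HR3 differed by 0.98 between days 3 and 10 (FDR p-value 0.00354) and by 0.80 between days 3 and 20 (0.0128). E75 differed by 0.47 (0.00151) and USP by 0.19 (0.0216) between days 3 and 20. The call for USP was lost without 11 of 13 libraries in turn, without the low-count filter (0.0839) and on unique gene reads (0.0602), and that for HR3 between days 3 and 20 without library 4 of day 3 SF (0.052). All 4 rest on the day 3 BF libraries, whose share of intron reads over all genes was 9.11% to 13.2%, against 3.95% to 6.15% in the other 15 libraries, and the part of this in the differences was not tested. In the 20 checks of the 4 day 3 BF libraries for a library far from the rest, by member and measure, 0 passed the limit of Dixon's test. Over all genes, library 3 of that group differed from its mates by chi-square values, divided by their degrees of freedom, of 45.0 to 76.9, against 20.9 to 32.9 among the others.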

How the results depend on the processing

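Counts of members called on gene reads moved by over 1.5 times under these settings. Upper-quartile factors gave 5 on day 3 and 1 on day 10, beside 62.6% and 17.9% of all genes. DESeq2 gave 1 on day 20 and 1 for SF between days 10 and 3. An FDR of 0.01 gave 1 for the day 3 minus day 20 effect and 0 for SF between days 20 and 3. With only the groups compared, BF between days 20 and 10 gave 0 and exon reads on day 3 gave 2, as they did at an FDR of 0.01. Leaving out single libraries gave 0 to 1 for SF between days 20 and 3 and for BF between days 20 and 10, 2 to 3 in day 3 exon reads, 0 to 1 in day 10 exon reads and 1 to 2 in day 3 intron reads. For the pathway list, day 10 gave 2 with upper-quartile factors, library size alone and only the groups compared, and 1 to 2 without single libraries. Day 20 gave 1 with only the groups compared and at an FDR of 0.01, and 1 to 2 without single libraries. Over all such counts, 279 values stayed within 1.5 times and 28 moved. Smaller moves included 4 on day 3 with library size alone, 2 to 4 for the day 3 minus day 20 effect without single libraries, where USP lost its call in 11 of 13 cases, and 2 to 3 for BF between days 10 and 3. The share of all called genes that were higher in BF depended on scaling, at 44.3% on day 10 and 43.5% on day 20 against 68.4% and 66.2% with upper-quartile factors and 62% and 64.7% with library size alone.

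Signs turned mostly where values were near 0. On gene reads USP on day 10 was 0.066 with upper-quartile factors, 0.044 with library size alone and -0.042 to 0.015 without single libraries. HR3 was -0.30 to 0.093 on day 10 and -0.038 to 0.093 on day 20, and Kr-h1 -0.19 to 0.14 on day 20, without single libraries. USP exon reads on day 3 were 0.020 with upper-quartile factors and -0.063 to 0.013 without single libraries. In intron reads on day 3, gene-read scaling turned EcR (1.10), USP (0.93), E75 (0.88) and Kr-h1 (1.20) and called 5 of 5, by setting introns against all gene reads. Without single libraries HR3 ran from -0.026 to 0.27 and Kr-h1 from -0.32 to 0.035. In day 3 exon reads HR3 lost its call under 6 of 8 other settings (FDR p-values 0.056 to 0.216) and EcR under 2 (0.0632 and 0.0978).

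With the replicate number as a block, the day 3 gene reads called 4 members, EcR added (log2 fold change 0.18, FDR p-value 0.0179), day 3 minus day 20 called 4, day 10 exon reads called 1 and the pathway list 2 on day 10. HR3 exon reads on day 3 lost their call (0.39, 0.129), and Kr-h1 intron reads were 0.020. Deviations of same-numbered SF and BF libraries correlated at 0.00093 to 0.17, over 0.1 in 2 of 9 pairs, and 7 of 9 SF libraries correlated best with their own number. Pairs of unlike number correlated at -0.13 to 0.050. Since not every pair was over 0.1, the comparisons were made without the block. This limit is not a test of pairing and does not show the libraries to be unpaired, as replicates 1, 2 and 4 each supplied every group. The calls of EcR gene reads and HR3 exon reads on day 3 therefore depend on that choice. So do the counts for the day 3 minus day 20 effect, for day 10 exon reads and for the pathway list on day 10.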
